A study of Mus musculus with 7 samples.

Results

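Elastic fibres and small proteoglycans belong to the matrix that fibroblast-like cells lay down around the lobules, ducts and vessels of the pancreas. The genes followed here were Dcn, Lum, Bgn, Fbln1, Fbln2, Fbln5, Eln, Fbn1, Mgp and Sparc, 10 of the 33864 genes listed in the count tables. They were chosen by name, from levels already seen in these same cells, with weight on the cells labelled pancreatic stellate. The levels per mouse and label below are therefore a description. The tests were run over all genes and are no independent evidence that these 10 genes move as a set.

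Decorin (Dcn), lumican (Lum) and biglycan (Bgn) are small leucine-rich proteoglycans, which bind collagen fibrils, govern their width and spacing, and hold growth factors of the TGF-beta family in the matrix. An elastic fibre has a core of crosslinked elastin (Eln) in a mantle of microfibrils built from fibrillin-1 (Fbn1). Fibulin-5 (Fbln5) brings tropoelastin and its crosslinking enzymes to the microfibril, while fibulin-1 (Fbln1) and fibulin-2 (Fbln2) are found with elastic fibres and basement membranes. Matrix Gla protein (Mgp) inhibits calcification of soft tissue, and SPARC (Sparc, osteonectin) is a collagen-binding matricellular protein made during matrix remodelling. Pancreatic stellate cells are the resident fibroblast-like cells of the exocrine pancreas, and they are known to take on a matrix-producing, activated state upon injury.

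Single-cell RNA was read from the pancreas of 7 C57BL/6 mice aged 2 months by the labels, 1 library per mouse. The i4F group (n = 3) carried the transactivator rtTA together with the 4 Yamanaka factors (Oct4, Sox2, Klf4, c-Myc) under doxycycline control, and was given doxycycline in drinking water at 1 mg/ml for 7 days. The cassette is not restricted to a cell type, so the cells compared could themselves express it. The WT group (n = 2) drank the same doxycycline and lacked the cassette. The caerulein group (n = 2) was wild type and received caerulein, a cholecystokinin analogue that injures the exocrine pancreas, at 100 µg/kg in 7 hourly injections on each of 2 days, with tissue taken on day 4. No doxycycline is given in its labels, so caerulein and the lack of doxycycline cannot be told apart in its comparison with WT.

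A value below is a number of molecules tagged with a unique molecular identifier (UMI), summed over the cells of 1 mouse and scaled by the total of those cells (CPM). The mouse was the unit of every test. Libraries held 4327 to 15138 cells and 15469018 to 64784216 UMIs. Cells with a stellate label numbered 1138 to 4393 per mouse and carried 4041500 to 43312159 UMIs. Cell barcodes shared between 2 libraries numbered 3 to 39, at most 0.411% of the smaller library. WT 1 and the i4F mice carried library names of one series and WT 2 and the caerulein mice of another, so that each comparison with WT can be set within a series against only 1 WT mouse.

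The library labelled i4F 3 stood apart from the other i4F mice. Its rtTA level over all cells, 46.7 CPM (counts per 1e6 UMIs), lay between those of i4F 1 and i4F 2 (42.5 and 48.3), and WT and caerulein mice had 0.058 to 0.951. Pou5f1 (Oct4) was at 0.194 CPM (3 UMIs) in i4F 3 and at 2.54 and 8.34 in i4F 1 and i4F 2 (154 and 315 UMIs), beside a background of 0.145 to 1.87 in the WT and caerulein mice (3 to 32 UMIs). Of its 1280 stellate cells, 1167 had the label Activated 2, against 144 and 126 in the other i4F mice, and 16.0% had under 500 genes, against 2.20% to 6.27% in the other 6 mice. Marker lists of other cells moved with the groups in the stellate sums. The acinar list, of which 12 of 36 genes were in the count tables, was at 582 and 595 CPM in WT. It was at 29.2, 66.4 and 1466 CPM in i4F, and 45.4 and 34.4 CPM in caerulein mice. The ductal list was at 255 and 91.9 CPM in WT, 2443, 3864 and 516 CPM in i4F, and 637 and 784 CPM in caerulein mice. Their part in the results was not tested, except that leaving out the 12 acinar genes at hand changed no call of the 10 genes. Counts of calls are given with and without i4F 3. For i4F against WT, leaving out any other mouse gave 0 calls of the 10 genes, beside 0.127% to 4.44% of all genes. Levels of several of the 10 genes also set i4F 3 apart, so calls made without it are no independent evidence. It is in neither group of caerulein against WT. Leaving it out there changed the spread shared by the 3 groups and hardly the fold changes (median of the 10 genes -0.91 with it, -0.90 without).

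The stellate labels were set by the authors in each condition apart, and not all of them were led by fibroblast genes. The WT label Activated (275 cells) had 4 smooth muscle markers and 1 pericyte marker among its 10 leading genes and no stellate or fibroblast marker, and the i4F label Activated 2 had 1 mesothelial marker (Upk3b) and 1 lymphatic marker (Ccl21a) and no stellate marker, with Dcn itself among its 10 leading genes. WT Quiescent 1 had no marker of any class. Members of the 10 were also among the 10 leading genes of WT Quiescent 1 (Mgp) and 2 (Fbn1), i4F Activated 1 (Fbn1 and Sparc) and caerulein Activated 1 (Bgn and Fbn1). The mesothelial list stood at 4246 and 4672 CPM in Activated 2 of i4F 1 and i4F 2, near the 5339 and 5496 CPM of the WT label Mesothelium, but at 571 CPM in i4F 3. The fibroblast list, which holds Vim, Cd34 and Ly6a beside collagen genes, stood at 9244, 9864 and 11854 CPM in the same 3 mice. It was at 10807 and 9377 CPM in WT Mesothelium, so its sum alone does not mark fibroblasts, and no i4F cells had the label Mesothelium. Activated 2 thus differed in its markers between i4F 3 and the other i4F mice. The pericyte gene Rgs5 stood at 354 and 176 CPM in the WT stellate sums and at 1.04 to 16.3 CPM in the other mice. Lrat, a defining gene of vitamin A-storing stellate cells, was near 0 in every mouse (0.072 to 3.96 CPM), whereas Col1a1 ranged from 1210.5 to 6313 CPM. The pooled cells are therefore called stellate-labelled cells, and the comparisons are repeated on the labels led by fibroblast genes or by no other class (WT Quiescent 1 and 2, i4F Activated 1, caerulein Activated 1, in which i4F 3 has 113 cells). In these sums, fewer cells of one kind and less RNA per cell cannot be told apart.

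On GRCm38 the genes lie on chromosome 10 (Dcn, 97479609 to 97518143, and Lum, 97565128 to 97572703), X (Bgn, 73483602 to 73495933), 15 (Fbln1, 85205949 to 85286535), 6 (Fbln2, 91212455 to 91272540, and Mgp, 136872435 to 136875823), 12 (Fbln5, 101746565 to 101819055), 5 (Eln, 134702593 to 134747323), 2 (Fbn1, 125300594 to 125507993) and 11 (Sparc, 55394500 to 55423183). All 10 are protein-coding, and Dcn and Lum are neighbours on the plus strand. RefSeq start-site windows of GRCm38.p6, 250 bases before to 50 after the start, were at hand for 6 of the 10 genes (8 windows). Of these, 4 are shown: Fbln5 because edgeR called it lower in both conditions with all 7 mice, Sparc and Fbn1 because they were called higher in caerulein mice without i4F 3, and Bgn because it was called in neither comparison. Fbln5 has a second window (chr12:101818435-101818734), which held 0 motif matches and is not shown. Capitals mark matches to 6 motifs searched on both strands: TATAAA (the TATA box), CCAAT, the GC box GGGCGG, the AP-1 motif TGANTCA, the TEAD motif GGAATG and the E-box CAGCTG.
Fbln5, chr12:101819070-101819369, minus strand: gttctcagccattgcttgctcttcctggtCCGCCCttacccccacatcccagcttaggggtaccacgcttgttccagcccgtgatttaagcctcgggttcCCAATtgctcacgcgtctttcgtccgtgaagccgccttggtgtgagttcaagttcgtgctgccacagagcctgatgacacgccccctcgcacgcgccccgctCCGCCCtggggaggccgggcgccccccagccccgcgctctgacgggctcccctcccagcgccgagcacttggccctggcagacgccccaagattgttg
Fbn1, chr2:125506389-125506688, minus strand: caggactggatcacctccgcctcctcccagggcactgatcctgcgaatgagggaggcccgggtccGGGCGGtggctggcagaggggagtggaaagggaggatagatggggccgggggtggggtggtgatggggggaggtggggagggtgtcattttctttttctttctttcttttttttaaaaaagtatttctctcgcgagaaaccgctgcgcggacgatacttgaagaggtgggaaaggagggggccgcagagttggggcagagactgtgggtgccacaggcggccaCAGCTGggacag
Sparc, chr11:55420031-55420330, minus strand: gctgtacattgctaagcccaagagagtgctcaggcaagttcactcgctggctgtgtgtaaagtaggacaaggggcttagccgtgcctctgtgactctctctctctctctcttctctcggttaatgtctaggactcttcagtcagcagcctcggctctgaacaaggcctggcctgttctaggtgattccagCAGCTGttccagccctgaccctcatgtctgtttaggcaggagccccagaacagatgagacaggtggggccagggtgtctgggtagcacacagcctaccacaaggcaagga
Bgn, chrX:73483351-73483650, plus strand: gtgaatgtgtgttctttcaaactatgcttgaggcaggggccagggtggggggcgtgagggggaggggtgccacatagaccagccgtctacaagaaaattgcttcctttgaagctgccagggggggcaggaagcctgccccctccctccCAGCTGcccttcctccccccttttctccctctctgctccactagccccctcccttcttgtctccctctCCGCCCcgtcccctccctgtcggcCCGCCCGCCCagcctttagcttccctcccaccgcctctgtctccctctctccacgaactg

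The Fbln5 window held CCAAT at -150 and GGGCGG, read as CCGCCC, at -221 and -48 from the start site. The Fbn1 window held GGGCGG at -185 and CAGCTG at +39, and the Sparc window held CAGCTG at -60. Bgn held GGGCGG as CCGCCC at -34, -10 and -6, the last 2 overlapping, and CAGCTG at -102. Among all 32851 windows of this length, 37.4% held CCAAT, 35.7% held the GC box and 16.3% held the E-box, so these letters are common and say nothing of a bound factor. The TATA box, the AP-1 motif and the TEAD motif, found in 13.6%, 7.81% and 14.7% of all windows, were in none of the 4.

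Most molecules of every one of the genes came from the stellate-labelled cells. Per mouse, the median share of a gene's UMIs found in those cells ran from 81.3% (Fbln5) to 97.6% (Lum), and the lowest share in any mouse was 72.3% (Fbln2). Endothelial cells added up to 19.4% of the Fbln2 molecules, 17.8% of Fbln5, 14.4% of Sparc and 9.93% of Eln in the mouse with most. Cells labelled mesothelium carried Dcn at 11376 and 16407 CPM in WT and 3363 and 6981 CPM in caerulein mice, and Mgp at 1426 and 1463 against 3806 and 6947 CPM. Smooth muscle cells, labelled apart only in i4F and caerulein mice, had Eln at 146, 230 and 126 CPM in i4F and 194 and 289 CPM in caerulein mice, above every caerulein mouse's stellate value. Fbln5 stood at 231 and 383 CPM in the small WT label Lymph nodes. In cells with a B lymphocyte label, which should lack these genes, Dcn still ranged from 4.34 to 955 CPM, so values of that size in other labels cannot be told from free RNA.

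**Figure D1:**
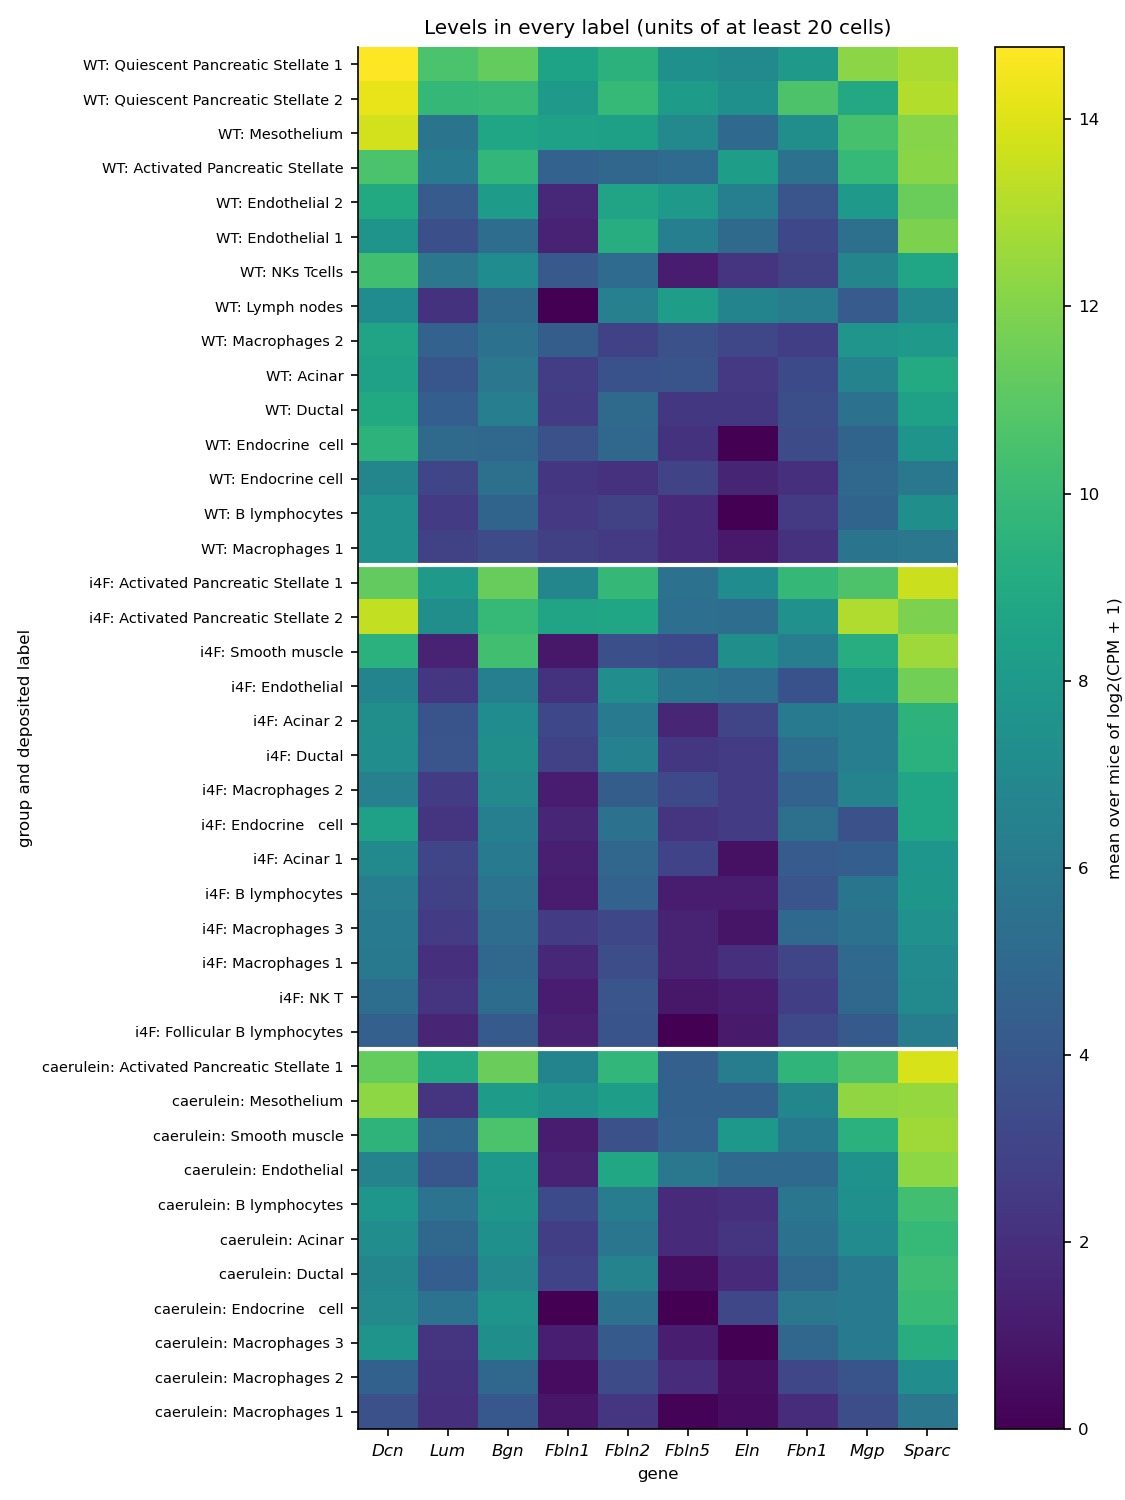
Mean over mice of log2(CPM + 1) of each gene (columns) in every deposited label (horizontal bands, grouped by condition, units of at least 20 cells), to be read down a column. In all 10 columns the highest values of a condition lie in stellate, mesothelial, smooth muscle, endothelial or lymph node labels, and the acinar, ductal and endocrine labels lie below those values.

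Decorin had the largest log2 fold changes of the 3 proteoglycans in both conditions. Its level in stellate-labelled cells was 25073 and 24053 CPM in WT, 1614, 2087 and 15893 CPM in i4F, and 2442 and 2586 CPM in caerulein mice. Both treated groups thus lay below WT without overlap, and i4F 3 lay nearer to WT than to the other i4F mice. With all 7 mice in edgeR's quasi-likelihood test, the log2 fold change was -1.73 ± 0.94 (SE) in i4F (adjusted p = 0.203) and -3.14 ± 1.13 in caerulein (adjusted p = 0.0880), neither past 0.05. Without i4F 3, Dcn was at 8.27% of WT in i4F (log2 -3.60 ± 0.30, edgeR adjusted p = 0.000243) and at 11.4% in caerulein mice (-3.13 ± 0.29, adjusted p = 0.000598). The caerulein fold change was thus nearly the same, with a smaller SE. As i4F 3 has the highest Dcn of the i4F mice, the i4F call without it is no independent evidence. On the fibroblast-led labels the log2 values were -3.14 and -3.25, given with no test, since that choice leaves out Activated 2, which has Dcn among its leading genes and holds 1167 of the 1280 stellate-labelled cells of i4F 3.

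Lumican, a proteoglycan carrying keratan sulphate chains, was at 1687 and 998 CPM in WT, 182, 144 and 888 CPM in i4F, and 473 and 510 CPM in caerulein mice. Again no mouse of either group reached WT, with i4F 3 just under the lower WT mouse. The log2 fold changes of -1.53 ± 0.75 and -1.28 ± 0.84 were not called over all 7 mice (edgeR adjusted p = 0.164 and 0.289). Without i4F 3, Lum fell to 13.6% of WT in i4F and to 41.4% in caerulein mice (edgeR adjusted p = 0.000291 and 0.00703). On the fibroblast-led labels only the i4F change was called (-2.14 ± 0.53, edgeR adjusted p = 0.0113), and the caerulein value was -1.40 ± 0.59 (adjusted p = 0.0939). That choice, made after seeing the data, keeps 113 of the 1280 stellate-labelled cells of i4F 3. The highest i4F value falls with it from 888 to 545 CPM, so this call is no independent evidence.

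Biglycan, the closest relative of decorin, did not pass the test in either condition. It was at 2405 and 1792 CPM in WT, 2297, 2051 and 2323 CPM in i4F, and 2367 and 3031 CPM in caerulein mice, so that the WT and i4F ranges overlapped. The log2 fold changes were 0.26 ± 0.24 and 0.52 ± 0.27 (edgeR adjusted p = 0.452 and 0.186), and they were not past 0.05 without i4F 3 either (0.20 ± 0.21 and 0.52 ± 0.21, adjusted p = 0.464 and 0.0893).

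Fibulin-5 was the only one of the 10 genes that edgeR called in the stellate-labelled sums of all 7 mice, where DESeq2 called 4 in caerulein mice (Dcn, Fbln5, Eln and Sparc), beside 24.8% of all genes by DESeq2. It was at 209 and 172 CPM in WT, 49.2, 45.1 and 87.3 CPM in i4F, and 22.4 and 22.6 CPM in caerulein mice, 3 ranges without overlap. It fell to 35.7% of WT in i4F (log2 -1.49 ± 0.31, edgeR adjusted p = 0.0240) and to 13.2% in caerulein mice (-2.92 ± 0.37, adjusted p = 0.00955). Over all genes, 12.9% were called higher and 9.55% lower in i4F, and 10.6% higher and 7.85% lower in caerulein mice, so 1 called gene of 10 is near the background. The falls were called again without i4F 3 (log2 -1.87 ± 0.14 and -2.92 ± 0.15, edgeR adjusted p = 0.000172 and 9.5e-05) and on the fibroblast-led labels (-2.01 ± 0.15 and -3.02 ± 0.18, adjusted p = 6.7e-05 and 5.0e-05). The choice of those labels, made after seeing the data, keeps 113 of the 1280 stellate-labelled cells of i4F 3. With the library series as a term the values were -1.55 ± 0.40 and -2.86 ± 0.44 (edgeR adjusted p = 0.0801 and 0.0692), no longer past 0.05. That term can only be estimated from WT 1 against WT 2. Leaving out any of the other 6 mice gave an i4F value of -1.29 to -1.52 (edgeR adjusted p = 0.0601 to 0.126). The caerulein fall was called without WT 2, i4F 1 or i4F 2 and not without WT 1 (-2.87, edgeR adjusted p = 0.0626), caerulein 1 (-2.97, adjusted p = 0.0857) or caerulein 2 (-2.84, adjusted p = 0.0714).

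Fibulin-1 and fibulin-2 took different courses. Fbln1 was at 252 and 436 CPM in WT, 72.6, 84.3 and 449 CPM in i4F, and 111 and 91.1 CPM in caerulein mice, and i4F 3 was the highest mouse of all. Its log2 fold changes of -0.62 ± 0.79 and -1.63 ± 0.89 were not called (edgeR adjusted p = 0.575 and 0.213), but without i4F 3 it fell by 2.02 and 1.63 on the log2 scale (adjusted p = 0.00290 and 0.00868). On the fibroblast-led labels it was called in neither comparison (-1.40 ± 0.55 and -1.74 ± 0.62, edgeR adjusted p = 0.0658 and 0.0560). Fbln2 was at 829 and 661 CPM in WT, 925, 999.8 and 694 CPM in i4F, and 785 and 972 CPM in caerulein mice, with overlap between all groups. Its log2 fold change was 0.39 in both comparisons (edgeR adjusted p = 0.223 and 0.263), and without i4F 3 it was 0.51 ± 0.16 in i4F (called, adjusted p = 0.0374) and 0.39 ± 0.16 in caerulein mice (adjusted p = 0.0951), with no call between the 2 conditions.

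Elastin, the core of the fibre, was at 191 and 123 CPM in WT, 86.2, 125 and 126 CPM in i4F, and 70.7 and 78.8 CPM in caerulein mice. The i4F range reached into that of WT, and the caerulein mice lay below both groups. Log2 fold changes were -0.31 ± 0.24 in i4F (edgeR adjusted p = 0.351) and -0.90 ± 0.26 in caerulein mice (adjusted p = 0.0530). Without i4F 3, the fall of Eln in caerulein mice, to 53.6% of WT, was called (edgeR adjusted p = 0.0179). Eln was not called in i4F (-0.42 ± 0.22, adjusted p = 0.152). The WT label Activated, led by smooth muscle genes, had the highest Eln of the stellate labels (466 and 184 CPM). With only the Quiescent labels kept in WT, the values were -0.22 ± 0.22 and -0.82 ± 0.25, and on the fibroblast-led labels the i4F value turned to 0.32 ± 0.44 and the caerulein value of -0.82 ± 0.47 was not called (edgeR adjusted p = 0.203).

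Fibrillin-1, the microfibril protein, was at 534 and 584 CPM in WT, 914, 996 and 461 CPM in i4F, and 721 and 899 CPM in caerulein mice. All treated mice but i4F 3 lay above WT. Its log2 fold changes were 0.65 ± 0.34 and 0.68 ± 0.36 (edgeR adjusted p = 0.185 and 0.202). Without i4F 3 it rose to 187% of WT in i4F and to 160% in caerulein mice (edgeR adjusted p = 0.00654 and 0.0232), and on the fibroblast-led labels the values were 0.78 ± 0.17 and 0.57 ± 0.18, given with no test, since Fbn1 is a leading gene of 3 of the 4 labels kept and is lower in Activated 2, which is dropped.

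Matrix Gla protein was at 3959 and 3095 CPM in WT, 1191, 1723 and 5438 CPM in i4F, and 1532 and 1837 CPM in caerulein mice, with i4F 3 the highest of all mice. The log2 fold changes were -0.16 ± 0.62 and -0.91 ± 0.69 (edgeR adjusted p = 0.864 and 0.350). Without i4F 3, Mgp fell to 45.6% and 53.3% of WT (edgeR adjusted p = 0.00757 and 0.0211). The fibroblast-led labels gave -0.94 ± 0.35 and -1.01 ± 0.39, with no test here, since Mgp is a leading gene of WT Quiescent 1, which is kept.

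SPARC went the other way. It was at 7558 and 7738 CPM in WT, 11417, 9882 and 7821 CPM in i4F, and 15096 and 15295 CPM in caerulein mice, with both treated groups above WT in every mouse and i4F 3 just above the higher WT mouse. Log2 fold changes were 0.50 ± 0.33 in i4F (edgeR adjusted p = 0.286) and 1.14 ± 0.36 in caerulein mice (adjusted p = 0.0662). Without i4F 3 the rise in caerulein mice, to 221% of WT, was called (edgeR adjusted p = 0.0198). Sparc was not called in i4F (0.61 ± 0.28, adjusted p = 0.117). On the fibroblast-led labels the values were 0.80 ± 0.27 and 1.07 ± 0.30, given with no test, since Sparc is a leading gene of i4F Activated 1, which that choice keeps, and is lower in Activated 2, which it drops.

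**Figure D2:**
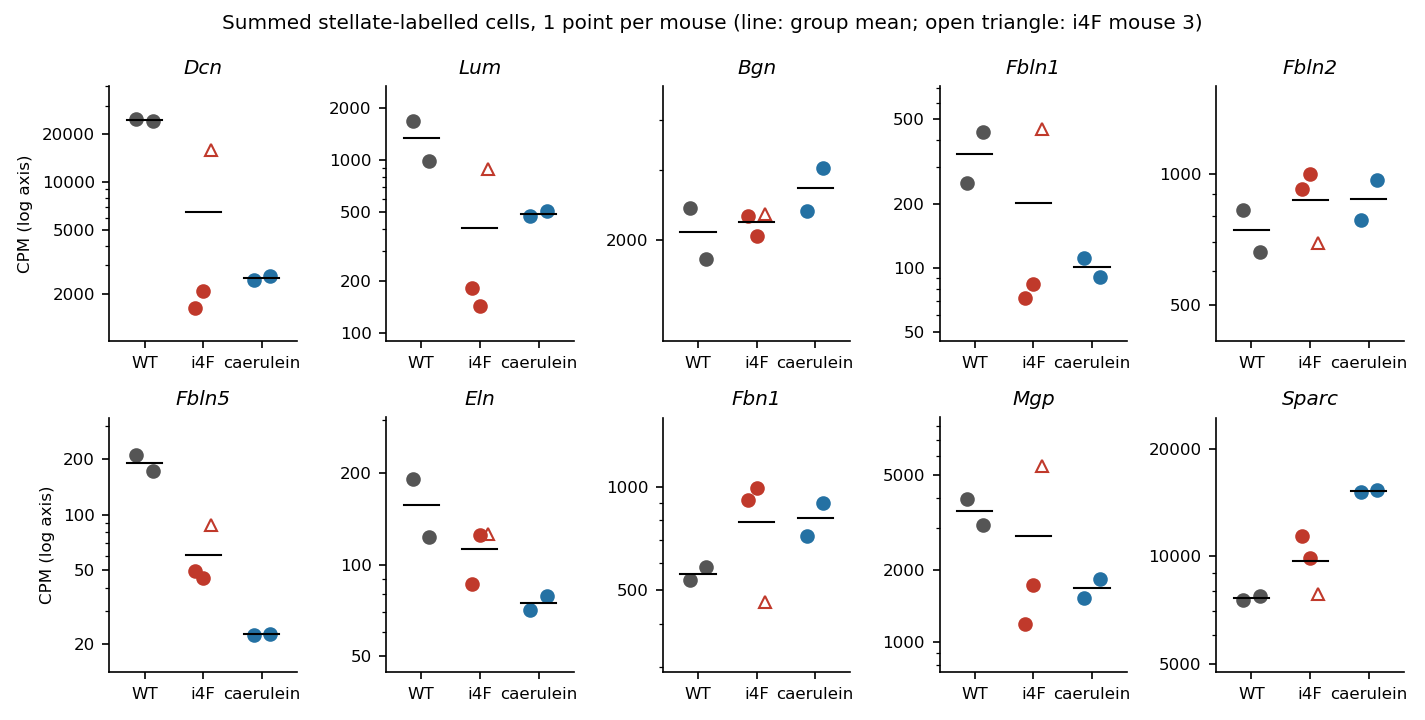
CPM (log axis) of the 10 genes in the summed stellate-labelled cells, 1 point per mouse in the WT, i4F and caerulein groups, a line at the group mean and an open triangle for i4F mouse 3. The triangle lies nearer to the WT points than the other i4F mice do for Dcn, Lum, Fbn1 and Sparc, and above them for Fbln1 and Mgp, while Fbln5 is below WT in all 5 treated mice.

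Counted over the 10 genes, the number of calls depended on whether i4F 3 was in the fit. In the caerulein comparison that mouse acts only through the shared fit, and in the i4F comparison also through the group's levels. With all 7 mice edgeR called 1 gene in each comparison with WT (DESeq2 1 in i4F, beside 26.7% of all genes, and 4 in caerulein mice, beside 24.8%), and without i4F 3 there were 7 in i4F (5 lower, 2 higher) and 8 in caerulein mice (6 lower, 2 higher). The background moved too: without that mouse 24.1% of all genes were called higher and 24.1% lower in i4F, and 19.5% higher and 20.6% lower in caerulein mice. Caerulein and WT mice fitted alone gave 8 of the 10 genes, beside 39.3% of all genes, whereas i4F and WT alone gave 0 by edgeR, beside 4.72%, with 1 at an unadjusted p under 0.05, beside 35.1%. The fibroblast-led labels gave 5 genes in i4F, beside 48.2% of all genes, and 4 in caerulein mice, beside 38.5%. These counts include Dcn, Fbn1 and Sparc, which are leading genes of labels kept or dropped, and nothing is read from them. Groups did not overlap for 4 of the 10 genes in i4F and WT (3 lower, 1 higher) and for 8 in caerulein and WT (6 lower, 2 higher), where 54.0% and 71.0% of all genes did not overlap. Median log2 fold changes of the 10 genes were -0.23 and -0.91, beside 0.02 and -0.04 for all genes tested. Without TMM scaling the median of all genes moved to -0.14 and -0.19, and the called genes split into 1448 higher and 2011 lower in i4F (1912 and 1415 with TMM) and 1198 higher and 1544 lower in caerulein mice (1571 and 1163 with TMM), with no member changing direction.

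**Figure D3:**
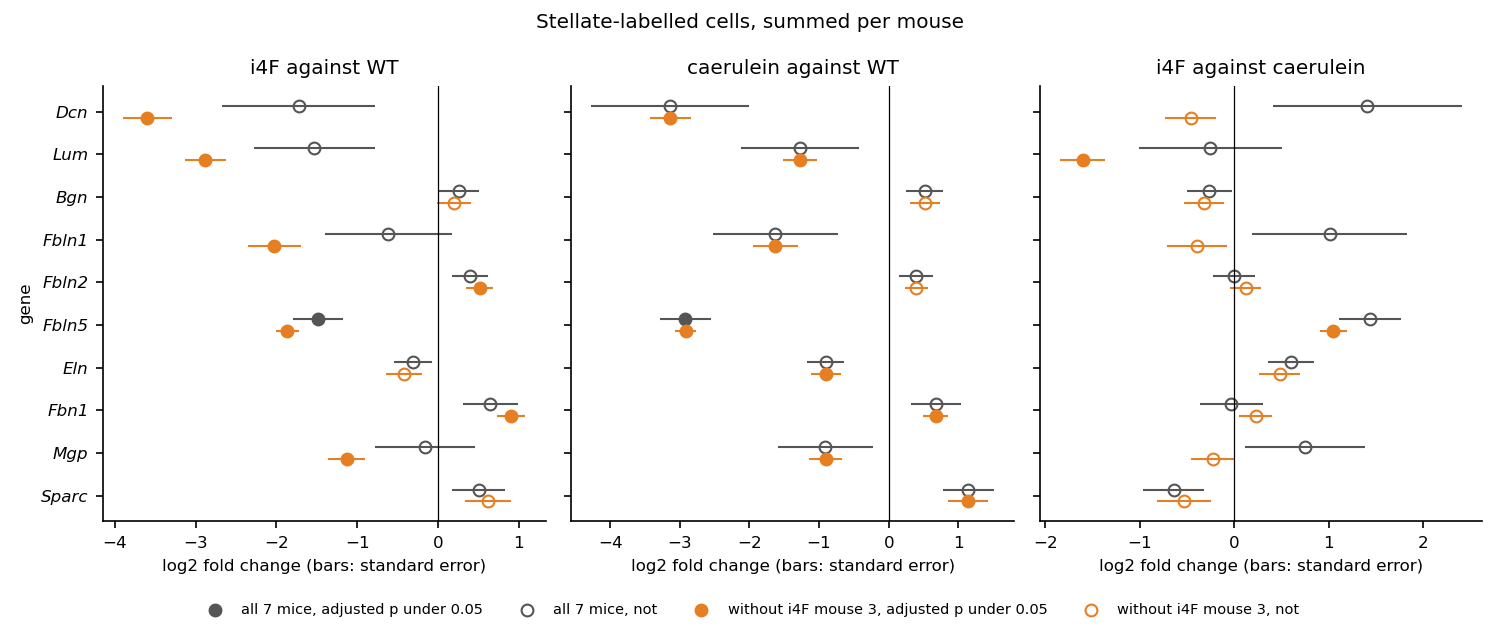
Log2 fold change of the 10 genes in stellate-labelled cells (bars: standard error derived from the F statistic) for i4F against WT, caerulein against WT and i4F against caerulein, in grey with all 7 mice and in orange without i4F mouse 3, filled where the adjusted p was under 0.05. In grey only Fbln5 is filled, in the first 2 panels, and in orange 7, 8 and 2 genes are filled.

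The stellate labels differed among themselves for the same genes, given here as levels without a test, since the labels came from the same cells. In WT, Quiescent 1 carried Mgp at 5432 and 4079 CPM and Quiescent 2 at 765 and 297 CPM. Fbn1 had the reverse order, with 284 and 227 CPM in Quiescent 1 and 1387 and 1862 CPM in Quiescent 2, the label led by genes such as Pi16. Bgn was 3014 and 2124 against 1100.2 and 933 CPM, and Fbln5 194 and 154 against 300.0 and 263 CPM, in the same order of labels. Dcn differed less (28971 and 27086 against 21150 and 19024 CPM), and the WT label Activated had little of it (1725 and 1338 CPM). That label was also lowest in WT for Fbln2 (35.7 and 23.0 CPM) and Fbn1 (58.6 and 36.8 CPM).

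In i4F mice the label Activated 1 held 4249, 2555 and 113 cells. Dcn there was at 1496, 1936 and 4530 CPM, so that i4F 3 was still highest but far under every WT Quiescent value, and Fbln5 was at 49.8, 45.5 and 37.6 CPM, with i4F 3 lowest. Sparc reached 11571, 10053 and 15313 CPM in Activated 1, beside 15096 and 15295 CPM in the caerulein label Activated 1. Activated 2 carried more Dcn (7873, 8347 and 19688 CPM) and Mgp (7697, 11112 and 6383 CPM) and less Fbn1 (122, 142 and 338 CPM), Sparc (3250, 2848 and 5319 CPM) and Eln (23.8, 29.2 and 75.3 CPM) than Activated 1 in each of the 3 mice. The mesothelial list in Activated 2 was at 4246, 4672 and 571 CPM in the same order, and its part in these levels was not tested. The sums of i4F 3 follow Activated 2, the label of 1167 of its 1280 stellate cells. Lum was low in Activated 2 of i4F 1 and 2 (30.1 and 119 CPM) and at 1002 CPM in i4F 3.

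**Figure D4:**
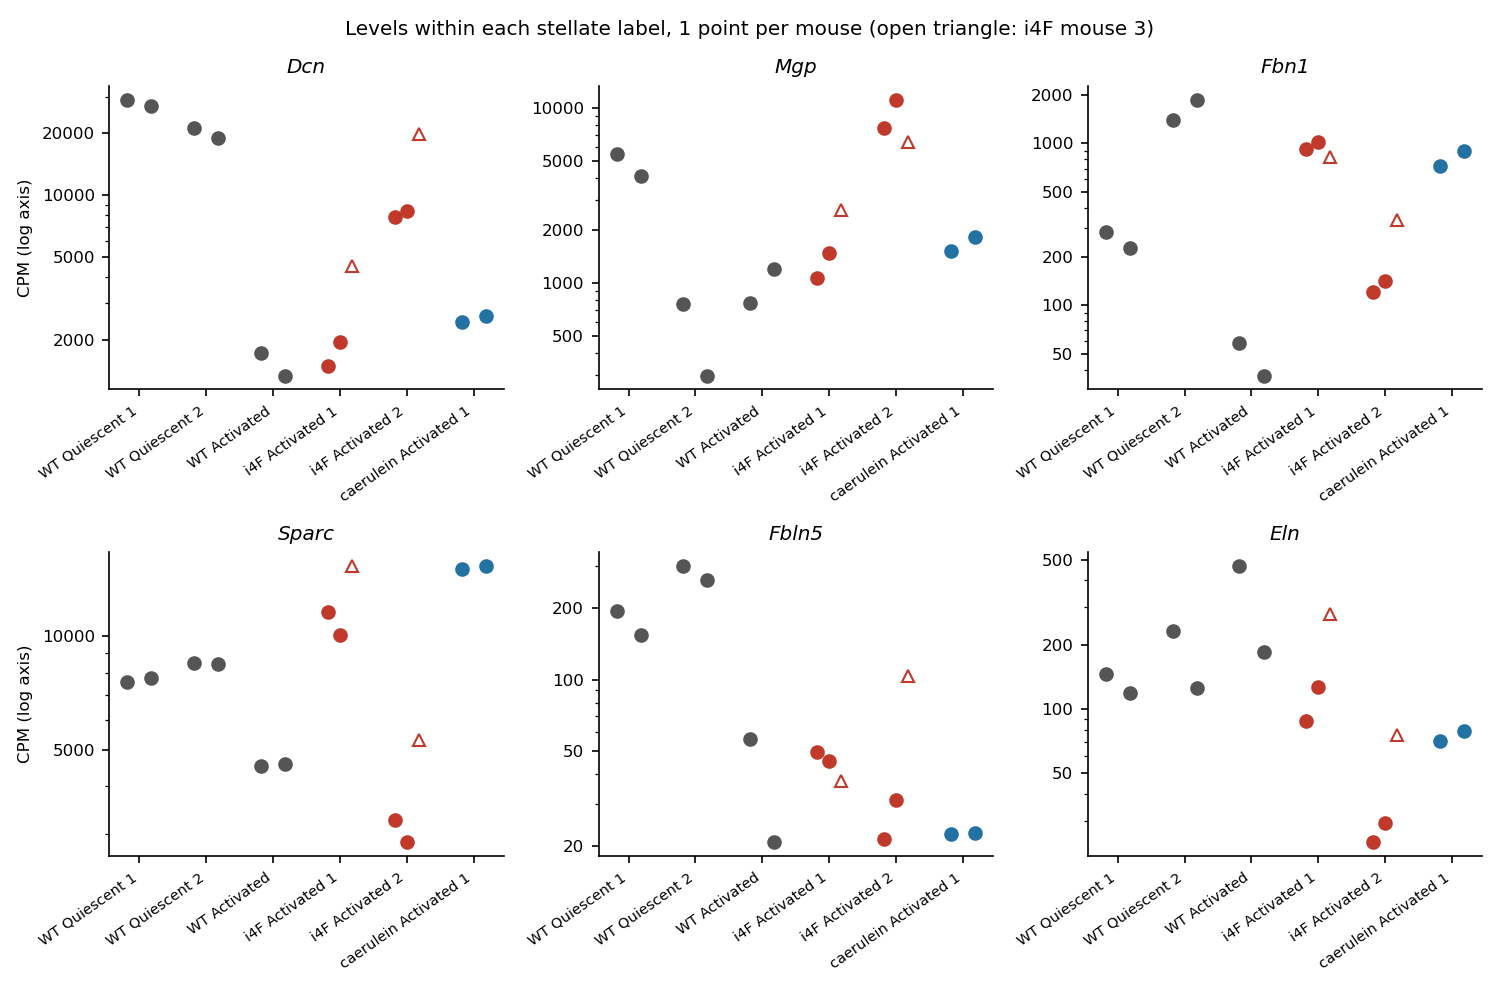
CPM (log axis) of Dcn, Mgp, Fbn1, Sparc, Fbln5 and Eln within each stellate label, 1 point per mouse, with an open triangle for i4F mouse 3. Within i4F Activated 1 the triangle lies beside the other 2 mice for Fbln5 and Fbn1, above them for Dcn, Mgp, Sparc and Eln, and Dcn stays under all WT Quiescent points.

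The choice of WT cells set the direction for several genes. Against the WT label Activated alone, the log2 fold change in i4F was 2.43 for Dcn, 2.86 for Lum, 3.08 for Fbln1, 0.98 for Fbln5 and 1.81 for Mgp, all opposite to the values against all WT stellate labels and none past 0.05 (edgeR adjusted p = 0.0620 to 0.167). Fbln2 and Fbn1 differed there by 5.20 and 4.35 (edgeR adjusted p = 0.000199 and 0.000982). As that label is led by smooth muscle genes, this contrast sets it against all stellate-labelled cells of the treated mice, Activated 2 included, and condition and kind of cell cannot be told apart in it. Against the Quiescent labels alone no gene changed direction, and Fbln5 was again the only one called (-1.58 ± 0.31 and -3.02 ± 0.37, edgeR adjusted p = 0.0229 and 0.00978).

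The shares of cells with a UMI were compared after each stellate-labelled cell had been thinned to 1000 UMIs, which left out 69 to 314 shallower cells per mouse. Fbln5 was then found in 18.1% and 14.3% of WT cells, in 4.46%, 4.30% and 10.7% of i4F cells and in 2.15% and 2.33% of caerulein cells. Unthinned, the shares were 46.5% and 38.8%, 31.7%, 26.8% and 19.5%, and 13.8% and 7.16%, with median depths of 2554.5 to 9918 UMIs per cell. Cells labelled B lymphocytes or follicular B lymphocytes, which should lack the gene, had a Fbln5 UMI in at most 2.70% of cells, unthinned at median depths of 467 to 6649 UMIs, and in 0.503% of cells in each caerulein mouse. Dcn was in 92.9% and 95.2% of thinned WT cells, 65.8%, 74.7% and 98.5% of i4F cells and 80.8% and 82.6% of caerulein cells, and Fbn1 in 28.3% and 27.9%, 53.8%, 53.5% and 25.2%, and 48.9% and 58.3%. For Fbn1, as for its CPM, i4F 3 lay below both WT mice and the other treated mice above them.

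Compared with each other, i4F and caerulein mice differed by 0 called genes among the 10, beside 0.918% of all genes. At an unadjusted p under 0.05 there were 2, beside 17.6% of all genes, Fbln5 (log2 1.43 ± 0.33, edgeR adjusted p = 0.0983) and Eln (0.60 ± 0.24, adjusted p = 0.265), both with the higher level in i4F, and DESeq2 called 1, beside 5.45%. Without i4F 3, 2 genes were called, beside 12.1% of all genes. All i4F libraries are of one series and all caerulein libraries of the other, and the groups also differ in genotype and doxycycline, so these cannot be told apart here. With the library series as a term edgeR called 0 of the 10 genes, beside 0 of all 14818 genes. At an unadjusted p under 0.05 there were 0, beside 1266 of 14818 genes. The series term can only be estimated from WT 1 against WT 2, so nothing is read from the lack of calls with it. The 2 genes called without i4F 3, in the fit without the series term, were Lum and Fbln5. In that fit Lum was lower in i4F than in caerulein mice (32.8% of the caerulein level, edgeR adjusted p = 0.0118) and Fbln5 was higher (207%, adjusted p = 0.00886). Dcn turned from 1.41 ± 1.00 with all mice to -0.46 ± 0.27 without i4F 3, and neither was past 0.05 (edgeR adjusted p = 0.524 and 0.305).

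Endothelial cells (276 to 1212 per mouse) also held UMIs of Fbln2, Fbln5, Sparc and Mgp. Fbln2 there was at 566 and 554 CPM in WT, 134, 71.4 and 371 CPM in i4F, and 376 and 514 CPM in caerulein mice, below WT in every treated mouse. The WT class joins 2 labels, Endothelial 1 (1283 cells) and Endothelial 2 (1051 cells, led by the venular genes Selp and Ackr1), and each treated group has 1 endothelial label, so the class does not lie in like clusters. The WT label Lymph nodes, where Fbln5 was also found, lies outside the class. No treated group had that label among units of at least 20 cells. The part of such cells in the endothelial sums of treated mice was not tested. Mgp was at 92.6 and 52.8 CPM in WT, 297, 446 and 207 CPM in i4F, and 252 and 140 CPM in caerulein mice, above the WT sums in every treated mouse. Within WT it was at 51.7 and 36.0 CPM in Endothelial 1 and at 280.3 and 232 CPM in Endothelial 2, so the treated mice overlapped the second label, and the part of the mix of labels in these differences was not tested. Endothelial 2 cells were shallow, with median UMIs at 0.114 to 0.121 of their library's median. Cells with immune labels in WT had Mgp at 198 to 554 CPM, and the part of free RNA in the endothelial Mgp was not tested. Fbln5 was at 130 and 91.8, 61.3, 31.3 and 74.2, and 46.1 and 79.4 CPM, and Sparc at 3692 and 3357, 5007 and 2774 and 2218, and 5125 and 4840 CPM in the same order. Of the 9 genes tested (Fbln1 had too few UMIs), 0 were called in i4F by edgeR, beside 0.871% of all genes. At an unadjusted p under 0.05 there were 3, beside 18.4%, and DESeq2 called 1 (Mgp), beside 3.58%. Mgp came nearest there (log2 2.20 ± 0.42, adjusted p = 0.0537). In caerulein mice edgeR called 0, beside 4.23% of all genes, with 3 at an unadjusted p under 0.05, beside 1631 of 8153 genes, and DESeq2 called 1 (Mgp), beside 5.39%. Without i4F 3, 3 genes were called in i4F, beside 15.0% of all genes: Fbln2 and Fbln5 fell by 2.43 and 1.24 and Mgp rose by 2.41 on the log2 scale. In caerulein mice 1 gene was then called, beside 11.6%, where Mgp rose to 303% of WT (edgeR adjusted p = 0.0311). Col1a1, a gene of fibroblasts, was at 3.8 and 8.5 CPM in the WT endothelial sums and at 204, 22.6 and 7.8 CPM in i4F and 301 and 133 CPM in caerulein mice, and the fibroblast list was at 5687 and 5477, 7899.8, 4807 and 5199, and 6401 and 5843 CPM. Col1a1 was thus a small part of that list in WT. As the list also holds Vim, Cd34 and Ly6a, its sum is not read as fibroblast RNA. The pan-immune and macrophage list in these sums went from 66.8 and 70.3 CPM in WT to 996, 877 and 203 CPM in i4F and 6885 and 4917 CPM in caerulein mice. The lymphatic list went from 92.1 and 86.1 CPM to 1475, 699.6 and 2087 CPM and to 1059 and 882 CPM. The part of these lists in the endothelial values was not tested.

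The effects in stellate-labelled and endothelial cells were compared within the mice in 1 edgeR model. Fbln5 fell more in stellate-labelled than in endothelial cells of caerulein mice, by a difference of log2 fold changes of -2.14 ± 0.33 (adjusted p = 0.00629), the one call of 10 beside 5.57% of all genes. At an unadjusted p under 0.05 there were 5, beside 21.1%, and DESeq2 also called Fbln5 alone, beside 5.29%. For the i4F effect edgeR called 0 of 10, beside 2.80% of all genes, with 3 at an unadjusted p under 0.05, beside 18.5%, and DESeq2 called 1 (Mgp), beside 3.86%. The largest differences there were -2.76 for Mgp and 2.05 for Fbln2 (edgeR adjusted p = 0.0730 and 0.102). Without i4F 3 both were called for the i4F effect (-3.41 and 3.12, edgeR adjusted p = 3.1e-06 and 1.7e-06), beside 14.5% of all genes, and 6 genes were called for the caerulein effect (Dcn, Lum, Fbln1, Fbln5 and Mgp lower, Fbln2 higher), beside 14.9%.

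Other genes of these pathways were followed as 7 lists of 62 genes, of which 54 were tested in stellate-labelled cells. In i4F 7 were higher and 3 lower than WT, and in caerulein mice 10 were higher and 6 lower, beside 12.9% higher and 9.55% lower of all genes in i4F and 10.6% and 7.85% in caerulein mice. Without i4F 3 the lists gave 16 higher and 22 lower of 55 genes in i4F and 14 higher and 17 lower in caerulein mice, beside 24.1% and 24.1%, and 19.5% and 20.6%, of all genes. Of the 5 crosslinking enzymes of elastin and collagen, 3 were called higher in i4F and 5 in caerulein mice (median log2 fold change 1.02 and 1.29, beside 0.02 and -0.04 for all genes). Without i4F 3, 5 were called higher in each. Lysyl oxidase (Lox) was at 131 and 96.5 CPM in WT, 726, 601 and 224 CPM in i4F, and 473 and 482 CPM in caerulein mice, a rise by 2.35 and 2.24 on the log2 scale (2.70 and 2.24 without i4F 3). Loxl1, which acts on elastin, rose by 1.02 and 1.29 (1.04 and 1.29 without i4F 3).

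Of 14 scaffold and assembly genes of elastic fibres tested, 2 were higher and 0 lower in i4F, beside 12.9% and 9.55% of all genes. In caerulein mice 3 were higher and 2 lower, beside 10.6% and 7.85%. The median log2 fold changes were -0.94 and -0.44. In either direction 5 of the 14 had an unadjusted p under 0.05 in i4F, beside 41.6% of all genes, and DESeq2 called 5, beside 26.7%. Without i4F 3 there were 2 higher and 8 lower in i4F, beside 24.1% each way, and 3 higher and 6 lower in caerulein mice, beside 19.5% and 20.6%. Fibrillin-2 (Fbn2) rose by 1.80 and 2.32, fibulin-4 (Efemp2) by 1.07 and 1.37, and Emilin1 by 1.52 in caerulein mice. Without i4F 3, Fbn2 and Efemp2 rose in i4F by 1.99 and 1.13. Ltbp4, a latent TGF-beta binding protein that also assists elastic fibre assembly, was at 606 and 451 CPM in WT, 21.2, 39.1 and 272 CPM in i4F, and 19.9 and 26.0 CPM in caerulein mice, with a fall in the latter (log2 -4.37) and, without i4F 3, also in i4F (log2 -3.99).

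Among the other small leucine-rich proteoglycans, 2 of 8 were lower in each comparison, beside 9.55% of all genes in i4F and 7.85% in caerulein mice. Without i4F 3, 6 of 9 were lower and 1 higher in i4F, beside 24.1% of all genes each way. In caerulein mice 5 were then lower and 2 higher, beside 20.6% and 19.5%. Omd (osteomodulin) fell by 1.97 and 2.47 on the log2 scale, Aspn (asporin) was lower in i4F (log2 -3.14, and -4.79 without i4F 3), and Prelp was lower in caerulein mice (log2 -2.68), where it was at 61.0 and 71.4 CPM beside 476 and 463 CPM in WT and 97.5, 112 and 299.6 CPM in i4F mice. Of the 5 relatives of SPARC tested, edgeR called Sparcl1 (hevin) with all 7 mice, beside 22.5% of all genes in i4F and 18.5% in caerulein mice. Sparcl1 fell by 1.89 in both comparisons. Without i4F 3 all 5 were called in each comparison, beside 48.2% and 40.1% of all genes. Of these, 1 was higher (Fstl1, log2 1.28 and 0.97) and 4 lower, among them Smoc2 (-2.84 and -2.09) and Spock2 (-1.81 and -2.18). Sparcl1 was at 1601 and 1512 CPM in WT, 191, 366 and 567 CPM in i4F, and 371 and 384 CPM in caerulein mice.

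The list of elastases and elastin proteases, which also holds Mmp14 and Adam17, gave 2 higher genes of 6 in each comparison, Mmp9 and Ctss. Beside them 12.9% of all genes were higher in i4F and 10.6% in caerulein mice. In caerulein mice 1 was lower, Mmp2 (log2 -0.83), beside 7.85% of all genes. Without i4F 3 there were 3 higher (Mmp14 among them) and 2 lower in i4F, beside 24.1% each way. In caerulein mice 2 were then higher and 1 lower, beside 19.5% and 20.6%. Ctss and Mmp9 are strongly expressed in myeloid cells. The whole pan-immune and macrophage list stood at 27.2 and 51.8 CPM in the WT stellate sums, at 438, 355 and 222 CPM in i4F and at 1421 and 921 CPM in caerulein mice, and its part in both genes was not tested. Of the 7 genes of the TGF-beta list (ligands, receptors and Bmp1, which is neither), edgeR called 0 in i4F and 0 in caerulein mice. At an unadjusted p under 0.05 there were 3 and 0, beside 41.6% and 39.9% of all genes. DESeq2 called 2 and 0, beside 26.7% and 24.8% of all genes. Of the 9 genes of glycosaminoglycan chain synthesis, edgeR called 0 in each comparison (1 at an unadjusted p under 0.05, and 1 by DESeq2, in each). Without i4F 3, 4 genes of the first list were called in i4F (Tgfb1 2.51, Bmp1 0.84 and Tgfbr2 0.77 higher, Tgfbr3 -0.99 lower) and 1 in caerulein mice (Tgfbr3, -1.03). Of the second list 2 were then called in i4F (Chsy1 1.42 and Xylt1 -1.11) and 1 in caerulein mice (Chsy1, 1.31). In that fit 48.2% of all genes were called in i4F and 40.1% in caerulein mice.

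Across 92 units of 1 mouse and 1 label with at least 20 cells, the genes whose levels most resembled the mean of the 10 were Serpinh1, the collagen chaperone (Spearman's rho 0.925), Mxra8 (0.915), Aebp1 (0.913), Gpx8 (0.903) and Fkbp7 (0.889), out of 26048 genes. Among the 10 the closest pairs were Bgn with Sparc (0.903), Fbn1 with Bgn (0.822) and Mgp with Bgn (0.819). Dcn was nearest to Mgp (0.736) and Fbln5 to Eln (0.672). The units share mice and libraries and mix fibroblast-led with other labels, so no p is given. Within the stellate-labelled cells of 1 mouse, thinned to 1000 UMIs, rho between genes was small (0.08 to 0.32 for Bgn and Sparc over the 7 mice).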

How the data were processed

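Pancreatic cells of 7 mice were measured with the 10x Genomics 3′ assay. According to the methods, the authors aligned the libraries to GRCm38 (mm10) with Cell Ranger, applied SoupX against ambient RNA and dropped cells of few genes or a high mitochondrial share. The deposited tables, 1 per condition, hold UMI counts (checked to be whole numbers and not normalized), and whether they precede or follow SoupX is not stated. The deposited metadata give the total UMI count, the number of genes, the percent of mitochondrial UMIs that the authors computed, the library and the cluster label of each cell. They clustered each condition apart in Seurat and named the clusters by hand. A gene not listed in a table was read as 0 there. Labels containing "tellate" made the stellate-labelled cells, and labels starting with "Endothelial" the endothelial cells. No doublet caller was run, and cells with UMIs of other classes' defining genes were dropped in an alternative. Libraries sharing a replicate number are not stated to be paired, and p-values measure the spread between mice.

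UMIs were summed per mouse and class (at least 20 cells) and tested two-sided with edgeR 4.0.16 in R 4.3.3 (TMM, filterByExpr, quasi-likelihood with the estimate introduced in that major version, legacy option off), all 7 mice in a fit of 3 groups, with Benjamini-Hochberg adjustment over all 14818 genes tested in stellate-labelled and 8153 in endothelial cells, and a threshold of 0.05. Stellate and endothelial effects were compared over 13784 genes in 1 fit with the mouse as a block. The edgeR test returns no standard error. Each SE given after ± was derived as the absolute log2 fold change divided by the square root of the F statistic. The test was checked on simulated data. The results were recomputed with DESeq2 1.42.0, without TMM, without the filter, with edgeR's legacy estimate, on 2 groups at a time, with a replicate block or a term for the library series, on cells of at least 500 genes or without UMIs of other classes, without acinar genes, with WT Activated or Quiescent labels alone, and without each mouse in turn. Labels led by fibroblast genes only, and cells without a UMI of Msln, Upk3b, Rgs5 or Myh11, were alternatives chosen after seeing the data. The 10 genes and the pathway and marker lists were chosen with earlier results of these data known. Named from the lists were up to 3 genes per direction, list and comparison chosen for the largest log2 fold change among the called genes, and no fold is given where WT mice held 3 UMIs or fewer. Likeness was Spearman's rho of log2(CPM + 1), for genes with a UMI in at least 5 of 92 units. Gene positions come from the GENCODE annotation of GRCm38, and start-site windows from RefSeq (GRCm38.p6).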

Additional observations from a re-analysis of the deposited data

Results flagged for a closer look

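With all 7 mice in edgeR, Fbln5 was the one gene of the 10 called for a difference in response between cell classes. DESeq2 called Mgp for the i4F effect as well, and without i4F 3 edgeR called 2 genes for the i4F effect and 6 for the caerulein effect, beside 14.5% and 14.9% of all genes. The caerulein effect on Fbln5 was lower in stellate-labelled than in endothelial cells by -2.14 ± 0.33 on the log2 scale (edgeR's quasi-likelihood test on class by condition within mice, adjusted p = 0.00629), with a fall from 209 and 172 to 22.4 and 22.6 CPM in stellate-labelled cells and levels of 130 and 91.8 against 46.1 and 79.4 CPM in endothelial cells. The adjusted p was 0.0555 to 0.110 with either WT mouse or either caerulein mouse left out (difference -1.81 to -2.29) and 0.000295 to 0.0149 with an i4F mouse left out. Against the WT label Activated alone the difference was 0.46 (edgeR adjusted p = 0.565). The WT endothelial class leaves out the label Lymph nodes, where Fbln5 was also found and which caerulein mice lack. The part of this in the difference was not tested.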

How the results depend on the processing

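Counts of the 10 genes called moved with the fit, as did the share of all genes called, given in brackets. For i4F against WT (1 with all mice) they were 0 for the 2 groups alone (4.72% of all genes) and 0 with the library series as a term (0.580%). They were 4 against the WT Activated label (22.8%), 5 on fibroblast-led labels (48.2%) and 0 to 7 with 1 i4F mouse left out (2.58% to 48.2%). Caerulein against WT (1) gave 2 without TMM (18.5%), 2 with the legacy estimate (17.1%), 4 with DESeq2 (24.8%), 2 without cells holding UMIs of other classes (18.1%), 8 for the 2 groups alone (39.3%), 0 with the library series (0.0742%), 5 against WT Activated (22.5%), 4 on fibroblast-led labels (38.5%) and 0 to 8 with 1 mouse left out (0.0810% to 40.1%). The replicate block gave 6, 8 and 2 genes for i4F against WT, caerulein against WT and i4F against caerulein, and 2 for i4F against WT in endothelial cells, beside 44.7%, 36.0%, 6.22% and 10.7% of all genes. Replicate numbers only name the mice (correlations of same-numbered deviations -0.44 to 0.11), and a block on numbers 1 to 3 leaves i4F 3 alone in its block. The comparison of i4F with caerulein (0) gave 1 with DESeq2 (5.45%), 1 on fibroblast-led labels (9.18%) and 0 to 2 with 1 mouse left out (0.00% to 12.1%).

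In endothelial cells, i4F against WT (0) gave 1 without TMM (1.80%), 1 with DESeq2 (3.58%), 1 without cells of other classes (1.11%) and 0 to 3 with 1 mouse left out (0.0919% to 15.0%), and caerulein against WT (0) gave 1 with DESeq2 (5.39%), 2 for the 2 groups alone (8.55%) and 0 to 1 with 1 mouse left out (0.283% to 11.6%). The difference in the i4F effect (0) gave 2 with the legacy estimate (5.11%), 1 with DESeq2 (3.86%), 1 without cells of other classes (3.75%), 7 against WT Activated (12.1%), 2 on fibroblast-led labels (10.8%) and 0 to 2 with 1 mouse left out (0.110% to 14.5%). The difference in the caerulein effect (1) gave 4 with the legacy estimate (7.65%), 3 with at least 500 genes per cell (5.80%), 2 without cells of other classes (5.44%), 3 against WT Activated (11.7%), 4 on fibroblast-led labels (7.82%) and 0 to 6 with 1 mouse left out (0.0592% to 14.9%).

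Signs turned as follows on the log2 scale, a list that is not complete for endothelial cells and for differences between classes. Not in it, for one, is Eln in endothelial cells. For i4F against WT it was -0.20 with the library series and -0.24 with the replicate block, and for caerulein against WT 0.30 with the library series. Against WT Activated, i4F values were 2.43 (Dcn), 2.86 (Lum), 3.08 (Fbln1), 0.98 (Fbln5) and 1.81 (Mgp), caerulein values 1.02 (Dcn), 3.12 (Lum), 2.06 (Fbln1) and 1.05 (Mgp), differences between classes in the i4F effect 2.84 (Dcn), 4.29 (Lum), 1.21 (Bgn), 2.08 (Fbln1), 1.97 (Fbln5) and 3.39 (Fbn1), and in the caerulein effect 1.96 (Dcn), 2.25 (Lum), 0.086 (Bgn), 0.93 (Fbln1), 0.46 (Fbln5) and 2.34 (Fbn1). On fibroblast-led labels Eln was 0.32 for i4F against WT, and Bgn 0.0060, Fbln2 0.092 and Fbn1 0.22 for i4F against caerulein. In that comparison Fbln2, at 0.00 with all mice, was 0.012 without a filter, 0.0047 with at least 500 genes per cell, 0.0020 for the 2 groups alone and 0.091 without mesothelial or mural UMIs, Fbn1 was 0.26 with the library series, and the replicate block gave -0.46 (Dcn), -0.41 (Fbln1), 0.13 (Fbln2), 0.23 (Fbn1) and -0.23 (Mgp). Sparc in endothelial cells of i4F against WT was 0.0058 without cells of other classes and 0.13 with the block. With 1 mouse left out the ranges were -1.13 to 0.21 (Mgp, i4F against WT), -0.46 to 1.87 (Dcn), -1.61 to 0.16 (Lum), -0.40 to 1.41 (Fbln1), -0.085 to 0.12 (Fbln2), -0.20 to 0.22 (Fbn1) and -0.23 to 1.12 (Mgp) for i4F against caerulein, -0.40 to 0.18 (Sparc, i4F against WT in endothelial cells) and -3.19 to 4.93 (Fbln1, difference in the caerulein effect). The causes were not tested. Counted over the 10 genes in stellate-labelled cells and, elsewhere, over Fbln2, Fbln5, Mgp, Sparc and genes with an unadjusted p under 0.05, 814 values kept their direction and side of the threshold, 101 moved past it, 17 fell short of it and 46 turned in sign.

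Over all genes, i4F against WT gave 3327 calls, 86 to 6969 under other settings and 22 to 7747 with 1 mouse left out, and caerulein against WT gave 2734, 11 to 5566 and 14 to 6435. The comparison of i4F with caerulein gave 136, 0 to 1326 and 0 to 1942. Endothelial cells gave 71 (19 to 876 and 8 to 1282) and 345 (112 to 841 and 24 to 996), and the differences 386 (307 to 1456 and 16 to 2015) and 768 (662 to 1416 and 9 to 2078). Groups held 2 or 3 mice, and endothelial sums 315054 to 2461759 UMIs.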
